A study of Mus musculus with 4 samples.

Results

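RFX2 binding was examined at 9 genes of meiotic prophase (Stra8, Spo11, Dmc1, Meiob, Hormad1, Sycp1, Sycp2, Sycp3 and Syce1), chosen by name out of 21938 annotated protein-coding genes. RFX2 belongs to the RFX transcription factors. Its binding was mapped by chromatin immunoprecipitation and sequencing (ChIP-seq), in which DNA held by a protein is enriched with an antibody and read. The labels give decapsulated testes of 29 to 30 days after birth, and the series' design text gives 2 separate wild type (WT) mice, on a mixed background of C57BL/6, 129/Sv and FVB/N. The study's text describes dissociated germ cells of younger animals, and the deposited lists do not settle which preparation applies. There were 2 RFX2 ChIP samples and 2 inputs, which are chromatin sequenced without antibody. All 4 samples were WT, so there was no group without RFX2. The inputs entered through the authors' peak calling, and no value of an input could be set beside a peak. The values are 3 deposited peak lists: 39825 peaks for RFX2_WT replicate 1, 21274 for replicate 2, and 2726 in a shorter list whose peak names begin with "all", called the combined list here. Each list gives a score per peak on a −log10 scale, where a higher score means that the ChIP signal departed further from the local background. The number of reads behind the lists is unknown, and peak lists hold no RNA levels, so the cell types of the samples could not be checked against markers.

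Meiotic prophase is the long first stage of meiosis, in which homologous chromosomes pair, exchange DNA and are held together by a protein zipper, the synaptonemal complex. Germ cells enter it under retinoic acid signalling. SPO11 then cuts the DNA, the recombinase DMC1 repairs the breaks against the homologue, and axis and synaptonemal complex proteins hold the chromosomes in register. In the male, RFX2 is found in spermatocytes of pachytene, a stage within prophase, and in early round spermatids. RFX factors bind the X-box, an inverted repeat. The question put to the lists was whether RFX2 was bound at the promoters of the genes that carry out prophase itself.

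The X-box was read from the data. Among 2717 summits of the combined list, the word of 8 bases in largest surplus within 50 bp of the summit was ATGGCAAC, present on either strand at 38.6% of the summits and in 0.147% of windows 1000 bp away. Joined with its reverse complement, it gave a palindrome of 14 bases, GTTGCCATGGCAAC. With at most 3 mismatches this X-box was present at 71.0% of the summits and in 0.478% of the flanking windows. The closest match in each member's promoters is shown next, since promoter peaks were counted in the same windows. The promoter window ran from 1000 bp upstream to 500 bp downstream of any annotated transcription start site (TSS). Those of Sycp1, Spo11 and Dmc1 lie in windows of internal TSSs. At the 5′-most TSS the best matches of these 3 genes had 4, 5 and 5 mismatches. Sequences are on GRCm38, 5′ to 3′ on the strand of the gene, with the bases that equal the palindrome in capitals.
Stra8 (chr6:34920366-34920379, plus strand, intron): GaTGCgAgGGaAAa
Spo11 (chr2:172985376-172985389, plus strand, coding exon or intron by transcript): GTTGaCcTtGCAtC
Dmc1 (chr15:79585237-79585250, minus strand, intron or non-coding exon by transcript): GTctgCcTGGCAcC
Meiob (chr17:24804013-24804026, plus strand, upstream of the gene): GcTtCCtTaGCgAC
Hormad1 (chr3:95559901-95559914, plus strand, intron): GTcGCCATGGgAct
Sycp2 (chr2:178407624-178407637, minus strand, UTR): GTgGaCAgGGCAgg
Sycp3 (chr10:88459208-88459221, plus strand, upstream of the gene): GaaGCtATGGCAAg
Sycp1 (chr3:102833409-102833422, minus strand, intron): GTTGCttTGGCAgt
Syce1 (chr7:140787700-140787713, minus strand, intron): GTTGgCATGGtgAg

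No member had an X-box with at most 3 mismatches in its promoters. The best match had 4 mismatches in 5 members (Sycp1, Sycp3, Syce1, Spo11, Hormad1) and 5 mismatches in 4 members (Stra8, Dmc1, Meiob, Sycp2). Among all 21938 protein-coding genes, 17.6% had such an X-box in the same kind of window, and 8.96% in a single window of 1501 bp at the 5′-most TSS. Among the 1153 genes with a combined peak in the promoter the share was 63.7%, against 12.2% of the 18382 genes with no promoter peak in any list. The X-box was read from the summits of that same combined list, so the 63.7% is not an independent result. Genes with more TSSs also have more sequence in which a peak or a match can fall. A match or its absence describes letters in the window and does not by itself show binding.

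**Figure D1:**
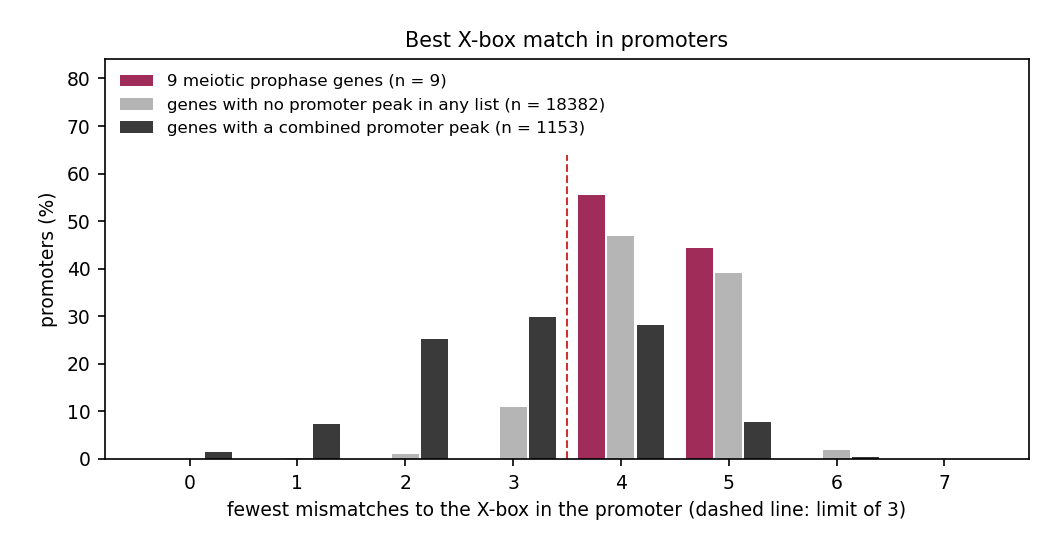
Share of promoters (y axis, %) by the fewest mismatches to the X-box of 14 bp in the promoter window (x axis), for the 9 meiotic prophase genes, the 18382 genes with no promoter peak in any list and the 1153 genes with a combined promoter peak; the dashed line marks the limit of 3. All 9 members lie to the right of the line, at 4 or 5 mismatches. To its left lie 63.7% of the genes with a combined promoter peak and 12.2% of those with no promoter peak. The X-box was itself read from the summits of the combined list.

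The promoters of the 9 genes carried no RFX2 peak in replicate 1, in replicate 2 or in the combined list, with a peak counted at an overlap of at least 1 bp. In the same window, 14% of all protein-coding genes had a peak in replicate 1, 11.3% in replicate 2, 9.05% in both replicates, 5.26% in the combined list and 16.2% in any list. Whether 0 of 9 differs from these shares was not tested. The lists hold peaks above the authors' thresholds, so binding below them was not detectable. All ChIP samples belong to 1 group, and genes are not replicates.

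The distance from a TSS of each member to the edge of the nearest peak was then taken. It ran from 5.40 to 94.1 kb in replicate 1 with a median of 28.7 kb, from 2.77 to 123 kb in replicate 2 with a median of 65.1 kb, and from 5.36 to 769 kb in the combined list with a median of 210.35 kb. Over all protein-coding genes the medians were 16.8, 28.4 and 204 kb. In each replicate 6 of the 9 members lay further from a peak than the median gene, and in the combined list 5 did. By definition as many genes lie beyond the median as before it, and whether the members differ was not tested. The replicate lists differ in length and threshold, so their distances are not on 1 scale.

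**Figure D2:**
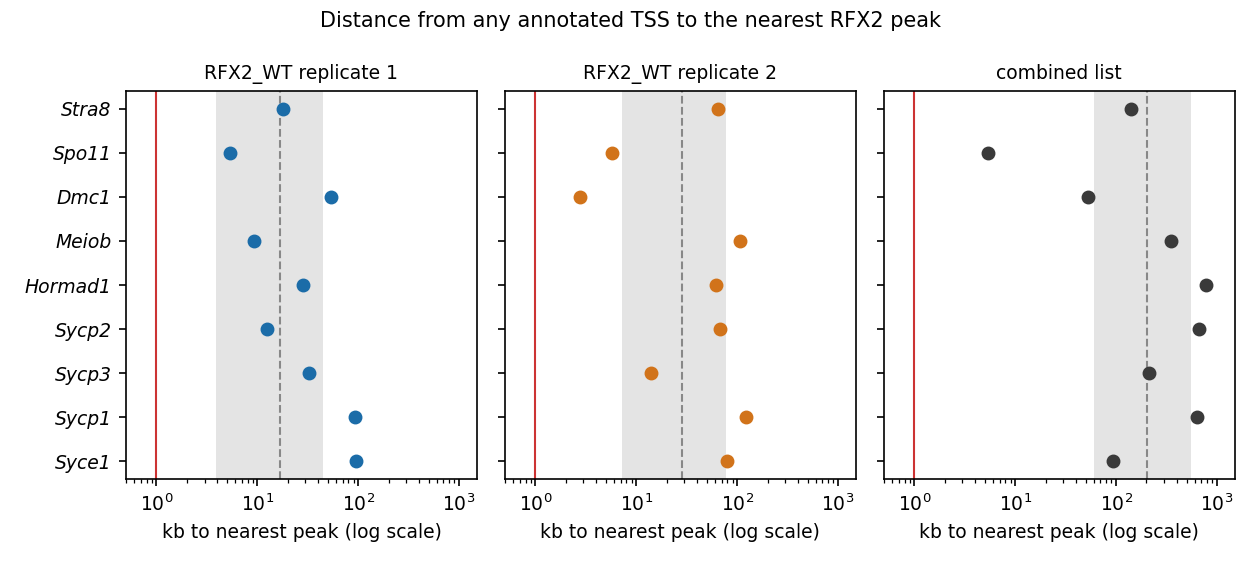
Distance in kb (log axis) from any annotated TSS of each of the 9 genes to the nearest peak edge in replicate 1, replicate 2 and the combined list. Points are single genes, the red line marks the upstream limit of the promoter window at 1 kb, the dashed line is the median over all protein-coding genes and the grey band their middle quartiles; no point lies left of the red line, and Spo11 lies far left of the band in the combined panel at 5.36 kb.

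Stra8, the retinoic acid target that drives entry into meiosis, lies on chromosome 6 from 34920163 to 34939344. Its nearest peak in replicate 1 lay 18.0 kb upstream in an intron of Wdr91, with a score of 12.1, and held an X-box with 2 mismatches. The nearest peak in replicate 2 lay 65.1 kb downstream with a score of 4.14, and neither peak was met by the other replicate. A higher-scoring peak of replicate 1 lay beside that of replicate 2, in the same gene, Slc23a4. It began at 34986397 with a score of 27.3, and the replicate 2 peak ended at 34986358, so they did not overlap. The nearest combined peak, with a score of 205, lay 139.5 kb upstream and met the promoter of Agbl3, which encodes a carboxypeptidase that trims glutamates from tubulin. The X-box in that peak, GTTGCCcTGGCAAC, had 1 mismatch and lay 1.5 bp from the summit.

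Spo11, the enzyme that makes the meiotic double-strand breaks, was the one member with a peak inside the gene in all 3 lists. It lies on chromosome 2 from 172977700 to 172993576. Of the 9 members, 2 (Spo11 and Sycp2) had a peak of replicate 1 in the gene span and 1 (Spo11) had one of replicate 2 and of the combined list, beside 34.7%, 27.5% and 7.85% of all genes. The nearest of its TSSs lay 5.40 kb from a peak in replicate 1, 5.78 kb in replicate 2 and 5.36 kb in the combined list. The replicate 1 peak at 5.40 kb was weak, with a score of 2.64, and was not met by replicate 2. The replicate 1 peak that replicate 2 shared lay at 5.73 kb. Of all protein-coding genes, 7.10% had a combined peak closer to a TSS than Spo11.

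Neither break repair gene had a peak inside the gene. Dmc1, the meiotic recombinase, lies on chromosome 15 from 79561497 to 79605109. A peak of replicate 2 lay 2.77 kb upstream of its TSS with a score of 4.72 and rank 13377 of 21274. This was the closest peak to any member in any list, 1772 bp outside the window, and replicate 1 had no peak there. The nearest peak of replicate 1 lay 53.2 kb upstream with a score of 79.9, and it was shared by replicate 2 and the combined list. It met the promoters of Cby1, which encodes a protein of the ciliary base, and of its divergent neighbour Fam227a. The X-box in it, tTTtCCtTGGCAAC, had 3 mismatches.

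Meiob encodes a single-stranded DNA binding protein of meiotic recombination and lies on chromosome 17 from 24804289 to 24839788. Its nearest peak in replicate 1 lay 9.28 kb upstream in intergenic sequence with a score of 8.28, and replicate 2 had no peak there. In replicate 2 the nearest lay 107 kb upstream, at the promoters of Gfer and Noxo1. The nearest combined peak lay 349 kb upstream, at the promoter of E4f1.

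Of the axis genes, Hormad1, whose protein marks unsynapsed axes, lies on chromosome 3 from 95559677 to 95587671. Its nearest peak in replicate 1 lay 28.7 kb downstream with a score of 6.29, in the promoter window of Golph3l. The nearest in replicate 2 lay 62.1 kb downstream with a score of 2.34, and the nearest combined peak lay 769 kb upstream. Of the 9 members, Hormad1 lay furthest from a combined peak.

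Sycp2 and Sycp3 encode the lateral elements of the synaptonemal complex. Sycp2, on chromosome 2 from 178345293 to 178407685, held 2 weak peaks of replicate 1 inside the gene, with scores of 3.89 in the UTR and 2.34 in a coding exon. Neither was met by replicate 2 or by the combined list, and both scores lay below the list's median of 4.47. The nearest peak of Sycp2 in replicate 2 lay 67.5 kb downstream, and the nearest combined peak 661 kb upstream. Sycp3 lies on chromosome 10 from 88459569 to 88473236. Its nearest peak lay 32.7 kb downstream in replicate 1 with a score of 3.64 and 14.1 kb downstream in replicate 2 with a score of 2.94. These were different sites, both within Chpt1. The nearest combined peak lay 210.35 kb downstream, with a score of 225 and a 42.4-fold enrichment.

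Sycp1 and Syce1 encode the transverse filament and a central element protein of the complex. Sycp1, on chromosome 3 from 102818499 to 102936100, had its nearest peak in replicate 2 at 123 kb upstream, at the Nras promoter with a score of 2.49. The nearest combined peak lay 638 kb upstream with a score of 75.5, at the promoter of Syt6. Syce1 lies on chromosome 7 from 140777229 to 140787852. Its nearest peak in replicate 1 and in the combined list was 1 site, 94.1 kb upstream, at the shared promoter region of Psmd13 and Sirt3, with a replicate 1 score of 37.7 and a replicate 2 score of 27.6. Replicate 2 had a weaker peak 78.9 kb downstream, with a score of 4.14. No peak of any list lay inside Sycp1 or Syce1.

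**Figure D3:**
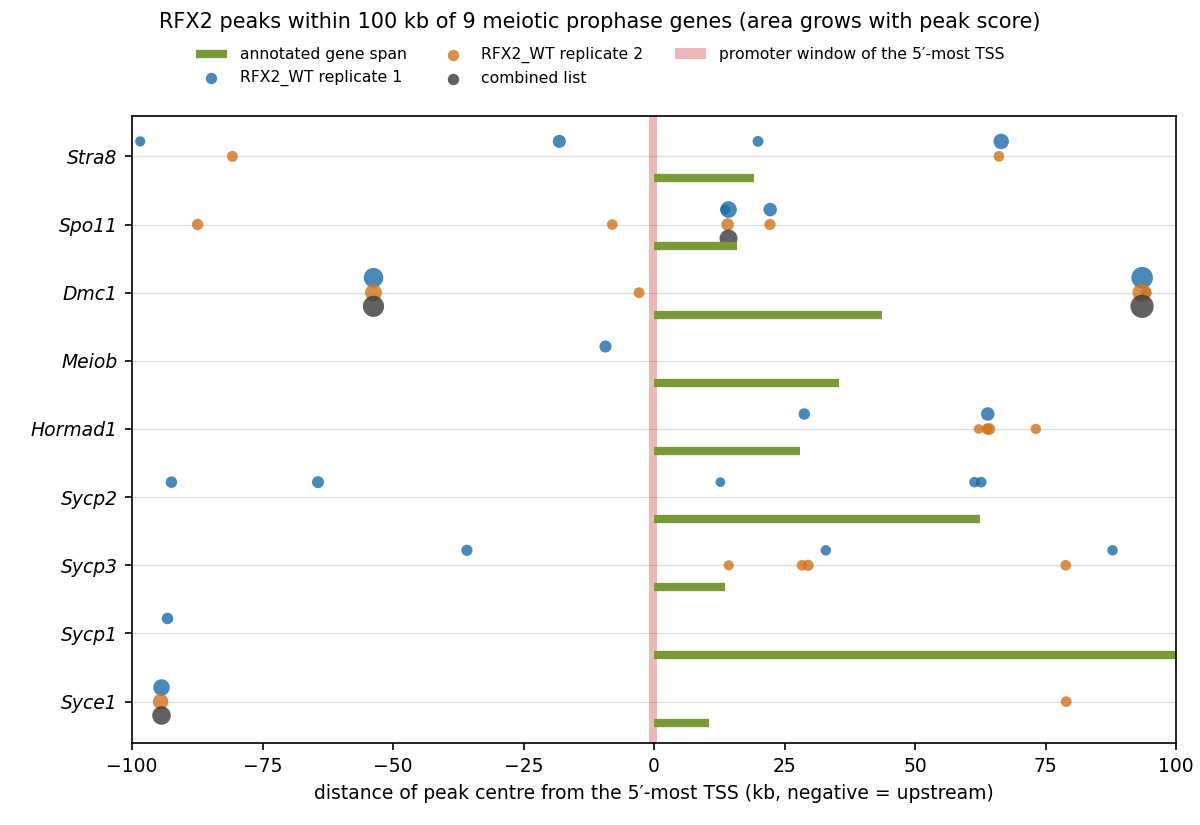
Peak centres within 100 kb of the 5′-most TSS of the 9 genes (x axis, kb in the direction of transcription), with replicate 1, replicate 2 and the combined list on separate levels and the area growing with the score; green bars are the annotated gene spans and the red band is the promoter window of the 5′-most TSS (windows of internal TSSs are not drawn). The red band is empty in every row, and stacked points of all 3 lists are seen at Spo11, Dmc1 and Syce1.

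The peak in Spo11 was the one site inside a member that both replicates shared. In replicate 1 it ran from 172991603 to 172992340 with a score of 38.8 and rank 2346 of 39825. In replicate 2 it ran from 172991659 to 172991954 with a score of 10.3 and rank 3348 of 21274. In the combined list it ran from 172991236 to 172992335 with a score of 54.8, a 15.5-fold enrichment and rank 2154 of 2726, so it was among the weaker peaks of that list. A further peak of replicate 1, from 172991275 to 172991434, had a score of 2.64 and no counterpart in replicate 2. The summit at 172991821 lay in the intron from 172990001 to 172992045, which is intron 10 of the coding transcripts with 12 exons and intron 11 of the one with 13. It lay 12.0 kb downstream of the TSSs of these coding transcripts and 5.94 kb downstream of the TSS of a shorter non-coding transcript, from which the distances above were measured. The sequence around this summit is given because it carries the sole X-box found under a peak in a member, shown in capitals on the plus strand.
Spo11 intron (chr2:172991761-172991881): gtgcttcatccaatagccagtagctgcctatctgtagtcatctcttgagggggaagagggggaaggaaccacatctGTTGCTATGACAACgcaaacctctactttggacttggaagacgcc

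This X-box differed from the palindrome by C6T and G10A, with positions counted from 1 at its 5′ end, and its centre lay 22.5 bp from the summit. The best match in a window of the same length 1000 bp past the peak had 4 mismatches. The best match in the Spo11 promoters also had 4. Whether the intronic site acts on Spo11 cannot be read from a peak list.

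**Figure D4:**
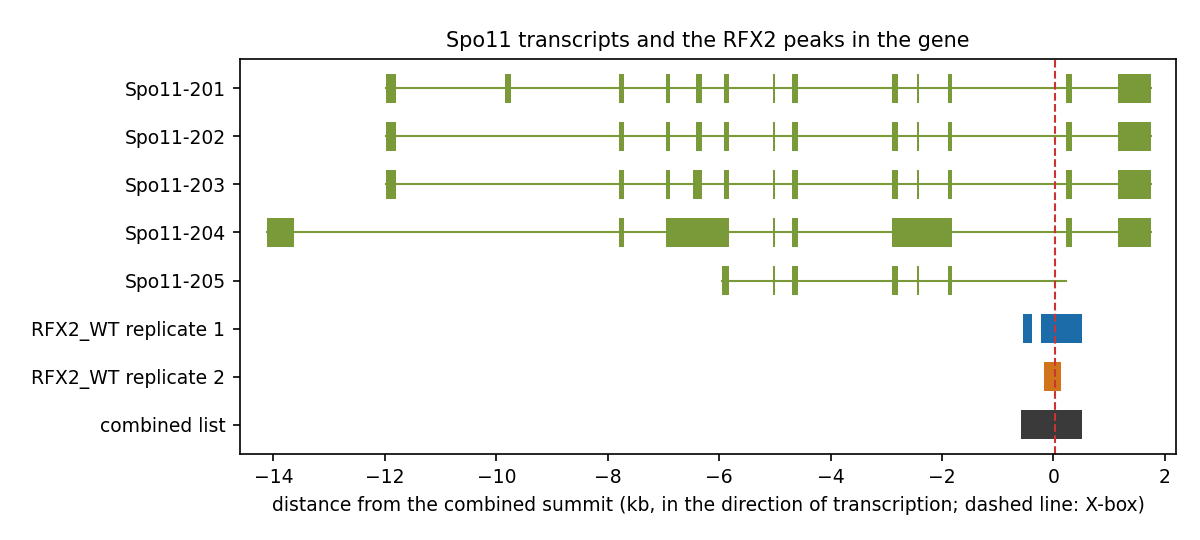
Map of the 5 annotated Spo11 transcripts (boxes are exons, lines introns) and the peaks of replicate 1, replicate 2 and the combined list in the gene, on an axis of kb from the combined summit in the direction of transcription. The peaks of all 3 lists cover the X-box (dashed line) near the 3′ end of the gene, and no peak lies at the start of any transcript.

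Within 100 kb of a TSS, every member had a peak of replicate 1, 7 of the 9 had one of replicate 2 and 3 had one of the combined list. Over all protein-coding genes these shares were 89.9%, 80.1% and 33.7%. At 8 loci within this range a peak of replicate 1 overlapped one of replicate 2. They lay near Dmc1 (3 loci), Spo11 (2), Sycp2, Syce1 and Hormad1, and none lay near the other 4 members, Stra8, Meiob, Sycp1 and Sycp3. Over all protein-coding genes, 58.4% had such a shared locus within 100 kb, close to the 5 of 9 members. The highest-scoring of them lay 73.2 kb from an internal TSS of Dmc1, with a score of 122 in replicate 1 and 63.2 in replicate 2. Of the 8 loci, 4 were in the combined list, 2 near Dmc1 and 1 each at Spo11 and near Syce1. The nearest combined peak of all 9 members was met by both replicates, as were 99.9% of all combined peaks. In 5 of the 9 it met the promoter window of another gene, and 36.8% of all combined peaks met a promoter window.

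The base composition of the promoters varied among the members. In the window of 1501 bp at the 5′-most TSS, G+C content ran from 47.5 to 56.1% with a median of 52.3%, against a median of 51.7% over all genes. The ratio of observed to expected CpG ran from 0.234 in Spo11 and 0.240 in Stra8 to 0.714 in Meiob, with a median of 0.578 against 0.482 over all genes and 0.609 over genes with a combined promoter peak. Repeat-masked sequence took 4.60 to 33.6% of the window, with a median of 18.8% against 14.0% over all genes. Reads with several locations were discarded by the authors, which limits peaks inside repeats. The nearest other protein-coding TSS lay 6.79 kb (Sycp2) to 35.9 kb (Meiob) from the 5′-most TSS. No promoter window of a member, at any TSS, overlapped that of another protein-coding gene.

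Other prophase genes did have promoter peaks. A list of 44 further genes for synapsis, axis, break formation, recombination, telomere attachment and meiotic entry was looked up in the same way. Of these, 9 (20.5%) had a promoter peak in replicate 1, 8 (18.2%) in replicate 2, 6 (13.6%) in both and 5 (11.4%) in the combined list, beside 14%, 11.3%, 9.05% and 5.26% of all genes. The other 33, like the 9 members, had none in any list. The 6 with a promoter peak in both replicates were Psmc3ip, Mcmdc2, Smc1b, Syce3, Msh5 and Rec8. Those with a peak in 1 replicate alone were Six6os1, Sycp2l and Shoc1 in replicate 1 and Hsf2bp and Meioc in replicate 2, with scores from 2.64 to 4.99.

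The highest-scoring of these were 2 partners of the recombinases. Mcmdc2, an MCM-like protein needed for strand invasion, carried a peak of the combined list at its promoter (chromosome 1, 9908005 to 9908956), with a score of 206 and rank 238. Its scores were 125 in replicate 1 and 119 in replicate 2, where it ranked 67. Psmc3ip, the HOP2 protein that assists DMC1, had one on chromosome 11, 101094735 to 101096058, with a score of 205 and rank 244. Its scores were 147 in replicate 1 and 102 in replicate 2. In the combined list 8.69% of peaks ranked above that of Mcmdc2 and 8.91% above that of Psmc3ip, whereas Dmc1 itself had no promoter peak.

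Smc1b, the meiotic cohesin subunit, had a combined peak with a score of 137 and rank 596, and scores of 85.7 and 80.2 in the replicates. The summit lay in the UTR of Ribc2, which is transcribed in the opposite direction and encodes a protein of axonemal microtubules, and the peak met the promoters of both genes. Syce3, a central element protein like Syce1, had a weaker combined peak with a score of 53.6 and scores of 44.1 and 13.8 in the replicates. Msh5, a crossover protein, had a combined score of 48.2 and replicate scores of 36.6 and 14.3. Rec8, the cohesin kleisin of meiosis, had scores of 5.31 and 5.86 in the replicates and no combined peak.

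Few of these promoters held an X-box. A match under each of the 5 combined peaks is printed for comparison with those of the members, in the same manner. It had the fewest mismatches in its peak, a number that a second site in the Psmc3ip peak, 646.5 bp from the summit, also had.
Mcmdc2 (chr1:9908576-9908589, plus strand, upstream of the gene): GTTGCCcTGGtgAC
Smc1b (chr15:85132088-85132101, minus strand, upstream of the gene): aTTcCCcgGGCAAC
Psmc3ip (chr11:101095416-101095429, minus strand, UTR): tTTcCCggaGCAAC
Syce3 (chr15:89410256-89410269, minus strand, in the peak over the TSS): GTTGCCAgGagtcC
Msh5 (chr17:35047093-35047106, minus strand, in the peak over the TSS): GTTGCtgTtGgcAC

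Mcmdc2 had 3 mismatches, with the centre of the match at -55.5 bp from the TSS and 3.5 bp from the summit. Smc1b had 4, at 4.5 bp from the summit, and Psmc3ip, Syce3 and Msh5 had 5. The match lay 24.5 bp from the summit in Syce3 and 188.5 bp in Msh5. The printed match of Psmc3ip, from 101095416 to 101095429, lay beside the summit at 101095430. In the list of 44 genes, 3 (6.82%) had an X-box with at most 3 mismatches in the promoter, beside 17.6% of all protein-coding genes. Whether these shares differ was not tested. Of the 6 genes bound in both replicates, Mcmdc2 was the one with such an X-box. The other 5 had a promoter peak in both replicates but no X-box by this limit. The last 120 bases before the Mcmdc2 TSS are shown as an example of a bound prophase promoter, with the X-box in capitals.
Mcmdc2 promoter (chr1:9908518-9908637, plus strand): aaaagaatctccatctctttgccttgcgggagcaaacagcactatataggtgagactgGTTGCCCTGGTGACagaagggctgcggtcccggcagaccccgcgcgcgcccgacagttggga

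Gene groups of other steps gave a scale for these counts. Of 12 core subunits of the intraflagellar transport complex B (IFT-B), which carries cargo into cilia and flagella, 10 had a promoter peak in replicate 1, 9 in replicate 2 and 9 in the combined list. Of 12 genes of late haploid cells, such as the protamines and transition proteins, 3, 3 and 1 had one. The shares over all protein-coding genes were 14%, 11.3% and 5.26% in the same order. The 9 prophase genes had 0 in each list. These groups are small, were chosen by name and were not tested against each other.

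**Figure D5:**
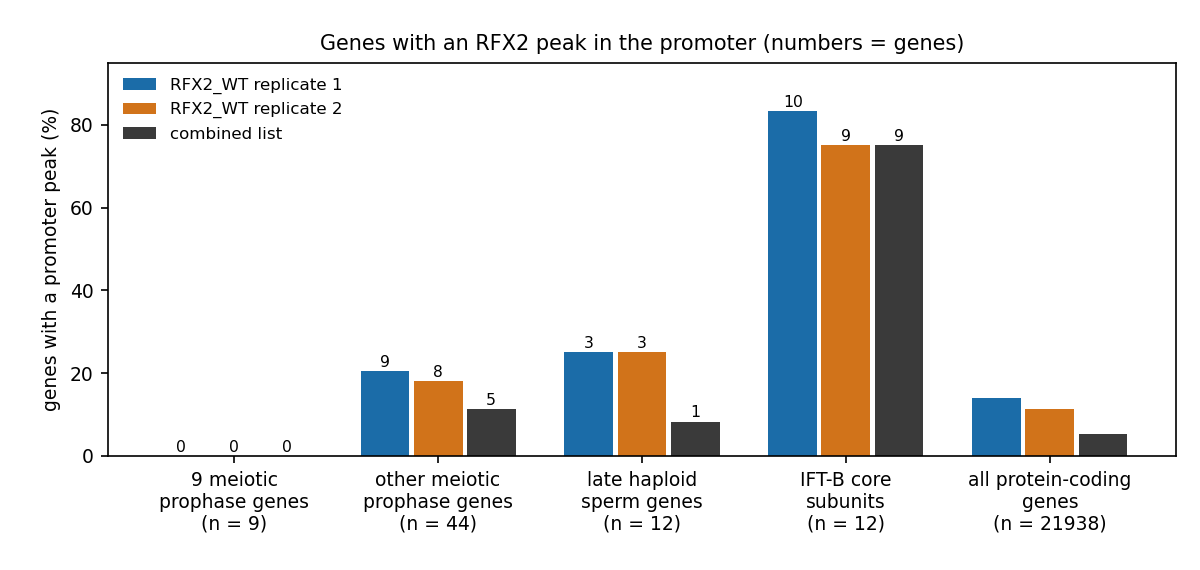
Share of genes with a promoter peak (y axis, %) in replicate 1, replicate 2 and the combined list for the 9 meiotic prophase genes, 44 other meiotic prophase genes, 12 late haploid sperm genes, 12 IFT-B core subunits and all protein-coding genes; numbers above the bars are genes. The 9 genes stand at 0 in all 3 lists, the other meiotic genes between 11.4 and 20.5%, and the IFT-B subunits between 75 and 83.3%. All protein-coding genes stand between 5.26 and 14%.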

How the data were processed

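Per the study's methods and the submitters' processing notes, reads (CASAVA 1.8.2) were mapped by the authors to GRCm38 with Bowtie 0.12.7, reads with several locations were discarded, and peaks were called with MACS2 2.0.10.20130520 against input. Replicate 2 was sequenced in 2 runs, and reads of human origin were removed from the second, which can also remove conserved mouse sequence. The deposited replicate lists give a −log10 value per peak, of a p-value or a q-value, which the authors' files do not state. The deposited combined list gives an integer score (10 times the −log10 p-value, rounded down, in 100% of peaks), the fold enrichment as a ratio to local background, −log10 p (the score quoted here), −log10 q and the summit. Its names point to a call on pooled reads, so it is not independent of the replicates. The study's methods also describe keeping peaks that agreed between replicates, at an irreproducible discovery rate of 0.01. The lists do not show whether the combined list passed this filter. Its overlap with both replicates can therefore follow from how it was made.

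Gene models were those of GENCODE mouse release 21 on GRCm38, with sequence from patch 6. The authors used Ensembl release 70, so TSSs can differ. Peaks, promoter windows and X-boxes were compared with Python 3.11.15, pandas 2.3.3 and pysam 0.24.0, and the counts of genes equalled those of bedtools 2.31.1. Scripts were tested on simulated data. The motif search left out 9 combined peaks within 100 kb of a member or in a promoter of the wider list. Nearest peaks are given for all members, except that of Sycp1 in replicate 1, which is not reported here. Of the wider list, genes with a promoter peak in both replicates or the combined list are named, as are those with a peak in 1 replicate, which were added after their values were seen. Members and lists were chosen with earlier results of these data known. No group comparison or test was made. Alternatives were other windows, TSS sets, overlaps, the top 50% of each list and other mismatch limits.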

Additional observations from a re-analysis of the deposited data

How the results depend on the processing

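Of 72 recalculations over 12 counts and medians, 69 changed a count by a factor of 1.5 or less or a median by less than 25.8 kb, the SD of the replicate medians. This SD comes from the replicate 1 and replicate 2 medians, which are not on 1 scale. It is close to the replicate 1 median of 28.7 kb, so it is a loose limit. The members had 0 promoter peaks under every window, TSS set, overlap and score limit tried, including RefSeq TSSs, which were added after the data were seen. Only the RefSeq TSSs and a window of 2000 bp on either side of the TSS could have raised this count. The other settings narrow the main one, so their 0 followed from the main count and is no further evidence. Without replicate 1 and without replicate 2 the count of members was 0, which the count in each replicate alone already gave. The count of the 44 other prophase genes, 6 in both replicates, was 8 and 9. With the top 50% of the combined list, 3 of these 44 genes had a promoter peak and the median distance of the members was 349 kb, both from fewer peaks. With at most 4 mismatches, 5 members had an X-box, a limit that 63.2% of all genes met. No paired analysis was possible because the results come from no test between groups. The depth of the libraries is unknown, and binding below the calling thresholds is not detectable in these lists.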
